A study of Homo sapiens with 43 samples.

Results

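H2087 is an established lung cancer cell line, and RNA of its parental cells was taken after 48 h in mitogen-low medium (MLM) or in mitogen-rich medium (MRM), before the cultures were confluent. Mitogens are the growth factors, mostly supplied by serum, that keep cultured cells in cycle. The comparison set the parental libraries 1 and 2 in MLM against the parental libraries 1 and 2 in MRM, as named in the labels, and asked how the transcripts of the parental cells differ between the media. The deposited tables of the line hold 18085 genes, and 12524 of them had a mean of at least 10 normalized counts over the 4 libraries and were tested. The 4 libraries are part of 43 samples in all, which include 12 libraries of latency-competent cell (LCC) derivatives of H2087 and 6 libraries of the parental breast cancer line HCC1954 in the same media. Both groups carry no other treatment in the labels, and the composition of the media, serum content included, is not given in the sources used here. Nothing in the labels says that libraries 1 and 2 came from separate cultures, and the p-values cover only the spread of these libraries, part of which may be technical. Whether the parental cells in both media came from the same stock was not tested, so medium and stock cannot be told apart.

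Withdrawal of mitogens is known to lower signalling through ERK and mTOR, to slow entry into S phase and to reduce synthesis of proteins and lipids. Secretory cells answer a high load of unfolded protein in the endoplasmic reticulum (ER) through the sensors IRE1, PERK and ATF6, which raise chaperones such as the HSPA5 product BiP. Shortage of amino acids acts through a related branch, the integrated stress response, in which the factor ATF4 raises amino acid transporters and synthesis enzymes. When the ER is less loaded, the unfolded protein response is known to be quiet.

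The parental MLM libraries held 50510816 and 55653300 reads, against 18112118 and 12131848 in MRM, so depth and medium moved together and cannot be told apart. The epithelial keratins matched the label: KRT8 stood at 41416 and 44213 normalized counts in MLM, against 40208 and 45377 in MRM. The other members of the 5 epithelial markers differed between the media. EPCAM was lower, with 5281 and 5335 in MLM, against 10947 and 10455 in MRM. CDH1 was higher, with 807 and 763.2 in MLM, against 210.3 and 203.2 in MRM, and KRT18 and KRT19 were also higher in MLM. Of 8 lung identity markers 7 had a row and 5 had a mean of at least 10, with a summed level of 12940 and 14130 in MLM, against 14920 and 14700 in MRM, of which KRT7 made up most. The surfactant gene SFTPC had 1.08 and 0.989 in MLM, against 0 in both MRM libraries. Markers of other cells were low in number: 3 of 10 fibroblast, 4 of 10 blood, 3 of 8 endothelial and 8 of 15 breast markers had a mean of at least 10. The fibroblast markers summed to 372.3 and 323.5 in MLM, against 1088 and 1040 in MRM, most of it COL1A1 and PDGFRA, while DCN and LUM were at 0 in MRM and at most 2.16 in MLM. The blood markers summed to 6993 and 7319 in MLM, against 8606 and 8470 in MRM, most of it CD68 and CD74, and CD14 had 8.08 and 11.9 in MLM, against 94.9 and 94.5 in MRM. PTPRC reached at most 0.989 and HBA1 was at 0 in all 4 libraries. The endothelial markers summed to 268.8 and 231.5 in MLM, against 90.1 and 134.7 in MRM, with ERG at 169.7 and 130.6 in MLM, against 26.9 and 26 in MRM, KDR at 43.1 and 43 in MLM, against 1.58 and 4.73 in MRM, and EMCN at 0 throughout. The breast markers summed to 4771 and 4770 in MLM, against 12470 and 11530 in MRM, of which XBP1 was the largest in every library, while MUCL1, SCGB2A2, PIP and TFAP2B were at 0. The part of these markers in the results was not tested.

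Most genes differed between the media by small amounts. limma, a linear model of log2 of the value plus 1, called 4786 genes higher in MLM (38.2% of those tested) and 4304 lower (34.4%) at an adjusted p under 0.05. Because so many genes passed, a second count was kept of called genes that changed at least 2-fold: 1127 were higher (9.00%) and 1211 lower (9.67%). The 4 libraries of a gene did not overlap between media for 87.3% of genes. edgeR on the recovered reads called 4728 higher (37.8%) and 4616 lower (36.9%). Without MLM library 2 limma called 3158 genes higher, and with all 16 H2087 libraries sharing 1 estimate of spread it called 2552 higher and 2266 lower. In that wider fit the lists below had 20 lower calls for the unfolded protein response, 24 for ER export, 13 for integrated stress and 9 for cholesterol, with 22 higher calls for S phase and 9 for heat shock. It ended the calls of ASNS, CHAC1, ATF4, SREBF1, SCD, CDKN1A, CDK6, PIK3IP1, ANKRD1, THBS1, CCL2, IFITM1, PDGFRA, SOX2, SOX9, CDH1, ESRP1, RAB25 and NAPSA. The MT1A and SLC30A1 calls ended there as well. Changes below are log2 of MLM minus MRM with their standard error from 2 libraries in each medium, and each list is read against these shares.

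Chaperones of the ER and their regulators were lower in MLM. All 20 tested genes of the unfolded protein response list were called lower, 17 of them at least 2-fold, with a median of -1.49 beside 0.03 for all tested genes. HSPA5, the master chaperone BiP, stood at 22740 and 23305 normalized counts in MLM, against 145290 and 122120 in MRM. Both MLM libraries lay far below both MRM libraries, and the change was -2.53 ± 0.08 (limma adjusted p = 4.42e-07). HSP90B1, the ER member of the HSP90 family, had 24997 and 24893 in MLM, against 94323 and 85933 in MRM, a change of -1.85 ± 0.06. In bulk RNA, fewer cells of a type and less RNA per cell cannot be told apart.

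Further members marked each task of the ER. The transcription factor XBP1, which IRE1 activates by splicing, stood at 2417 and 2452 in MLM, against 8806 and 7740 in MRM (-1.76 ± 0.06). HERPUD1, a component of the machinery that returns misfolded proteins to the cytosol, fell by 1.99 ± 0.06 on the log2 scale, and SEL1L, an adaptor of the same machinery, by 1.61 ± 0.09. HYOU1, a chaperone that assists BiP, fell by 1.83 ± 0.07 and lies in a run of neighbouring genes that moved together, as described below. The lectin chaperones CALR and CANX, which hold glycoproteins while they fold, changed by -1.45 ± 0.04 and -1.17 ± 0.06. CRELD2, a stress-induced ER protein, had the values 679.9 and 692.5 in MLM, against 1346 and 1238 in MRM (-0.91 ± 0.06), and also lies in a run.

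The promoters of these genes are shown because 6 of the 20 members carry an ER stress response element, the site known to bind NF-Y with ATF6, within the 300 bases around the start of the gene. Searched on both strands as CCAAT and CCACG with any 9 bases between them, the element was found in 30% of the 20 promoters and in 22 of 27305 promoters in the table (0.0806%). The sequences are from RefSeq on GRCh38.p14 and read 5′ to 3′ along the gene's strand. Capitals mark the element or its reverse complement. HSPA5 (chr9:125241381-125241419, minus strand) and XBP1 (chr22:28800593-28800631, minus strand) hold 1 copy each, HSP90B1 (chr12:103930206-103930349, plus strand) 2 copies, and CALR (chr19:12938374-12938412), CANX (chr5:179698768-179698806) and CRELD2 (chr22:49918544-49918582), all on the plus strand, 1 copy each.
HSPA5: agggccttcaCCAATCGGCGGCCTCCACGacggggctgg
XBP1: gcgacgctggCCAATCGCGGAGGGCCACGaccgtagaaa
HSP90B1: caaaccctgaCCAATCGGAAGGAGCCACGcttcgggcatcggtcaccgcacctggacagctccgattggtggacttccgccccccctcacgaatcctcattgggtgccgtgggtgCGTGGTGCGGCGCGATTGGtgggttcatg
CALR: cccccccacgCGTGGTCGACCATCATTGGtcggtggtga
CANX: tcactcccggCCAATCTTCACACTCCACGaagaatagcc
CRELD2: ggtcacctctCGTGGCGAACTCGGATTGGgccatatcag
These matches describe the letters in the window and do not show that a factor bound there.

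Genes of the later secretory route were lower as well. Of 36 genes for translocation into the ER, glycosylation and export, a list added after the others had been seen, 30 were called lower, 10 of them at least 2-fold, 3 were called higher and 3 were not called (median -0.78). LMAN1, the cargo receptor that carries glycoproteins to the Golgi, had 3683 and 3663 normalized counts in MLM, against 13118 and 11894 in MRM (-1.77 ± 0.05). RPN2 and RPN1, subunits of the complex that attaches glycans, changed by -1.41 ± 0.04 and -1.26 ± 0.04. SEC63, part of the translocation channel, changed by -1.26 ± 0.06, the cargo receptor LMAN2 by -1.21 ± 0.04 and SSR4, a subunit of the translocon-associated complex, by -1.12 ± 0.05. No promoter of the 30 that matched this list held the ER stress element.

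Amino acid and integrated stress genes were lower in nearly every member. Of 29 tested genes, 28 were called lower, 11 at least 2-fold, and 1 was called higher (median -0.81). NUPR1, a small stress-induced nuclear protein, had 23.2 and 32.2 normalized counts in MLM, against 452.3 and 323.8 in MRM (-3.76 ± 0.22). CTH, which makes cysteine, fell by 1.85 ± 0.12 and TRIB3, a pseudokinase that feeds back on ATF4, by 1.71 ± 0.08. The transporters SLC7A5, for leucine, and SLC7A1, for arginine, changed by -1.48 ± 0.06 and -1.36 ± 0.07. ASNS, asparagine synthetase, stood at 3473 and 3558 in MLM, against 9391 and 7151 in MRM (-1.22 ± 0.11). The death-promoting factor DDIT3 changed by -1.05 ± 0.07, the alanyl-tRNA synthetase AARS by -0.88 ± 0.06, and ATF4 itself by -0.32 ± 0.04. CHAC1, which degrades glutathione, had 259.1 and 243.9 in MLM, against 305.2 and 300.1 in MRM (-0.27 ± 0.09, adjusted p = 0.0291), a call that was lost without MLM library 1 (adjusted p = 0.148) or MLM library 2 (adjusted p = 0.264).

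An element known to bind ATF4 with CEBP proteins, searched as TGATGNAAN on both strands, was found in 5 of the 24 list members with a promoter in the table (20.8%) and in 1002 of all 27305 (3.67%). It is shown for the 3 members whose match lies before the start: ASNS (chr7:97872458-97872486, minus strand), AARS, listed as AARS1 in RefSeq (chr16:70289676-70289704, minus strand), and CHAC1 (chr15:40953251-40953279, plus strand). Capitals mark the match or its reverse complement.
ASNS: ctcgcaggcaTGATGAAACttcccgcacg
AARS1: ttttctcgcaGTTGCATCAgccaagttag
CHAC1: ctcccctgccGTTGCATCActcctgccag
ASNS and AARS were called lower in MLM without any 1 of the 4 libraries, unlike CHAC1.

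**Figure D1:**
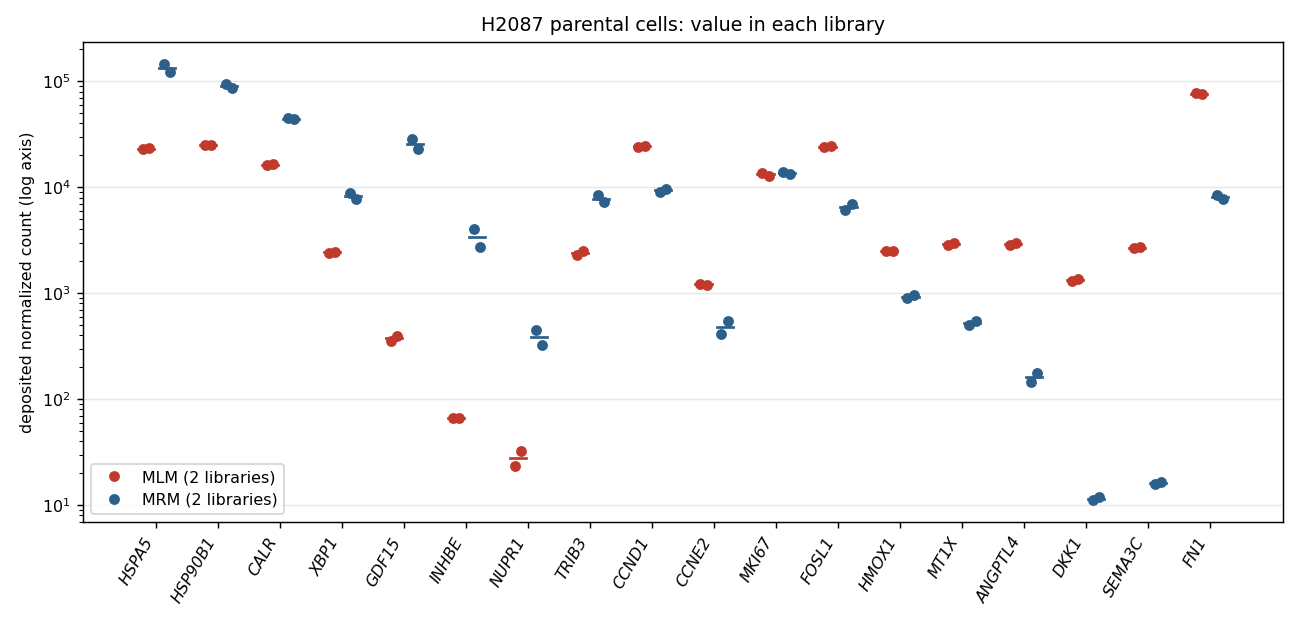
Deposited normalized count (log axis) of 18 genes in each parental H2087 library, with 2 MLM libraries (red) left of 2 MRM libraries (blue) and a line at each mean. HSPA5 stood at 22740 and 23305 in MLM, against 145290 and 122120 in MRM, while MKI67 overlapped between the media and DKK1, SEMA3C and FN1 lay far higher in MLM.

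Hormone-like proteins known to be secreted under these stresses showed some of the widest gaps. GDF15, a stress hormone of the TGF-beta superfamily that suppresses appetite, had 355.6 and 393.2 normalized counts in MLM, against 28452 and 23155 in MRM, a change of -6.10 ± 0.10. INHBE, which encodes the activin E subunit, had 66.3 and 66.8 in MLM, against 4019 and 2734 in MRM (-5.62 ± 0.16). The MRM libraries differed from each other by more than the MLM libraries did, yet the groups stayed widely apart. The INHBE gene lies in a run of neighbouring genes.

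Lysosomal genes were lower in the majority of members. Of 30 tested, 22 were called lower, 9 at least 2-fold, 7 higher and 1 was not called (median -0.81). PSAP, the precursor of the sphingolipid activators, had 26706 and 27996 in MLM, against 78423 and 73256 in MRM (-1.47 ± 0.06). The cathepsins CTSB and CTSD, which digest proteins in the lysosome, changed by -1.45 ± 0.06 and -1.39 ± 0.05 and the sialidase NEU1 by -1.45 ± 0.05. ATP6V1H, a subunit of the proton pump, was not called (-0.01 ± 0.04, adjusted p = 0.901).

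Sterol genes moved down by moderate amounts. Of 23 tested genes of cholesterol synthesis and uptake, 18 were called lower, 2 at least 2-fold, 4 higher and 1 was not called (median -0.48). SREBF2, the transcription factor that drives the pathway, had 3421 and 3598 in MLM, against 8881 and 8444 in MRM (-1.30 ± 0.05). Its targets INSIG1, SQLE and DHCR7 changed by -0.98 ± 0.05, -0.98 ± 0.04 and -0.98 ± 0.05. HMGCS1, an early enzyme of the pathway, went the other way at 1.14 ± 0.05 and lies in the run of higher genes on chromosome 5. Of 15 genes of fatty acid synthesis 11 were called lower, 2 higher and 2 were not called. The lower ones included SREBF1, their main regulator (-0.85 ± 0.05), and the desaturase SCD (-0.73 ± 0.05).

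Genes that export sterols, known targets of the LXR receptors, also fell in several members: of 10 tested, 6 were called lower, 3 at least 2-fold, and 2 higher, 1 of them without either MLM library. ABCG1, a sterol exporter, had 1.62 and 3.46 normalized counts in MLM, against 94.9 and 121 in MRM (-4.98 ± 0.36). ABCA1, which loads lipid onto nascent high-density lipoprotein, had 156.2 and 166.7 in MLM, against 1267 and 1123 in MRM (-2.88 ± 0.09). LPCAT3, which remodels phospholipids, changed by -1.998 ± 0.05.

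Replication genes were higher in MLM, the medium with fewer mitogens. Of 30 tested S phase genes, 26 were called higher, 4 at least 2-fold, 1 lower and 3 were not called, with a median of 0.51. The cyclin CCNE2, which drives entry into S phase, had 1230 and 1194 normalized counts in MLM, against 411.2 and 545.9 in MRM (1.35 ± 0.12). CLSPN, an adaptor of the replication checkpoint, changed by 1.31 ± 0.08, CCNE1 by 1.26 ± 0.14, RRM2, a subunit of ribonucleotide reductase, by 1.14 ± 0.09 and the licensing factor CDC6 by 0.93 ± 0.05. The replication clamp PCNA had 3951 and 3977 in MLM, against 2562 and 3004 in MRM (0.51 ± 0.07), and E2F1, the factor that activates these genes, changed by 0.38 ± 0.09 (adjusted p = 0.00717). The E2F1 change was 0.23 without MRM library 1, and its call was lost without MLM library 1 or 2 (adjusted p = 0.0928 and 0.0902). Outside runs of neighbouring genes, 20 of 23 tested members were called higher and 1 lower.

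The E2F site, searched as TTTGGCGC or TTTCCCGC on both strands, was found in 15 of the 26 S phase promoters in the table (57.7%) and in 631 of all 27305 (2.31%). E2F1 (chr20:33686388-33686415) and PCNA (chr20:5126664-5126691), both on the minus strand, are shown as examples, with the site or its reverse complement in capitals.
E2F1: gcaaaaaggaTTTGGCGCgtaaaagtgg
PCNA: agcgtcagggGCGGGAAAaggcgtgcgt
Both genes changed by less than 2-fold.

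Mitotic genes as a group hardly moved. Of 30 tested, 13 were called higher, 1 at least 2-fold, 8 lower and 9 were not called (median 0.02), shares near those of all genes. The lower calls numbered 1 without MLM library 1 and 2 without MLM library 2. MKI67, the usual marker of cycling cells, had 13675 and 12760 normalized counts in MLM, against 13808 and 13355 in MRM, and was not called (-0.04 ± 0.05, adjusted p = 0.478). CCNB1, the mitotic cyclin, was not called either (-0.04 ± 0.04, adjusted p = 0.354). UBE2C, which helps to destroy mitotic cyclins, was higher at 1.05 ± 0.05, and CDC25C, the phosphatase that starts mitosis, lower at -0.78 ± 0.06.

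Among G1 regulators, 9 of 14 tested were called higher and 5 lower. Without MLM library 1 the counts were 5 and 3, and without MLM library 2 they were 4 and 2. CCND1, the cyclin that mitogens are known to induce, stood at 24118 and 24513 normalized counts in MLM, against 9106 and 9708 in MRM (1.37 ± 0.05). The kinase CDK6, its partner, changed by 0.66 ± 0.05. The inhibitor CDKN1A (p21) was also higher, with 1884 and 1958 in MLM, against 774.9 and 905.1 in MRM (1.20 ± 0.08), whereas CDKN1B (p27), which accumulates in many cells deprived of mitogens, was lower at -0.44 ± 0.06. RBL2, the retinoblastoma relative of resting cells, had 1741 and 1725 in MLM, against 3585 and 3325 in MRM (-0.99 ± 0.05).

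Mitogen-responsive genes did not move as 1 block. Of 17 immediate early and AP-1 genes, 7 were called higher, 6 lower and 4 were not called. FOSL1, an AP-1 subunit that follows sustained ERK activity, had 23859 and 24530 in MLM, against 6040 and 6877 in MRM (1.91 ± 0.06), and JUN changed by 1.31 ± 0.04. KLF6, counted in the FOXO target and quiescence list below and not in this one, changed by 1.55 ± 0.04. NR4A1, an orphan receptor induced early by serum, was lower at -1.38 ± 0.12 and MYC at -0.64 ± 0.04, and FOS was not called (-0.13 ± 0.13, adjusted p = 0.388). Of 18 genes of ERK feedback 8 were higher (5 without MLM library 1), 6 lower and 4 not called. The Sprouty inhibitor SPRY2 changed by 1.09 ± 0.05 and IER3, an early response gene, by -1.68 ± 0.05, while the ERK phosphatase DUSP6, at 5734 and 5686 in MLM, against 5745 and 5540 in MRM, was not called (0.02 ± 0.04, adjusted p = 0.711).

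Targets of SRF and YAP, factors that read actin tension and serum lipids, were spread widely: 12 of 22 were called higher, 8 of them at least 2-fold, and 8 lower, 2 at least 2-fold. ANKRD1, a nuclear ankyrin protein, had 1123 and 1141 in MLM, against 159.7 and 165.4 in MRM (2.79 ± 0.07). THBS1, a matrix glycoprotein, changed by 2.53 ± 0.08, the tropomyosin TPM1 by 1.24 ± 0.06 and the cytoskeletal actin ACTG1, whose reads may be shared with near-identical copies, by 1.19 ± 0.05. CTGF, a classical YAP target, had 634.6 and 643.5 in MLM, against 1800 and 1600 in MRM (-1.41 ± 0.07).

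Growth and quiescence lists gave mixed directions. Of 26 MYC target and ribosome biogenesis genes 15 were called higher and 4 lower, with SRM, spermidine synthase, at 0.89 ± 0.08, ODC1, the first enzyme of polyamine synthesis, at 0.78 ± 0.05 and the transferrin receptor TFRC at -1.08 ± 0.05. The nucleolar protein NPM1 was not called (0.09 ± 0.05, adjusted p = 0.168). The 40 cytosolic ribosomal proteins stayed close to the median of all genes, with a median change of 0.08 and single changes between -0.21 and 0.55. Of 27 FOXO target and quiescence genes 11 were higher and 16 lower. The higher ones included KLF6, given above, and TXNIP, which restrains glucose uptake (1.21 ± 0.10). FOXO4, with 60.3 and 58.4 in MLM, against 262.5 and 248.1 in MRM (-2.09 ± 0.12), and PIK3IP1, an inhibitor of PI3K (-1.27 ± 0.18), were lower.

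Heat shock chaperones, most of them cytosolic, moved in the opposite direction to those of the ER. Of 15 tested genes, which include mitochondrial chaperones and a transcription factor, 13 were called higher in MLM, 3 at least 2-fold (median 0.67). The other 2 were not called, and edgeR called 12 higher and 1 lower. HSPA8, the constitutive HSP70, had 89073 and 91093 normalized counts in MLM, against 35956 and 40972 in MRM (1.23 ± 0.07). HSPA1A, the inducible HSP70, whose reads may be split with its near-identical copy, changed by 1.24 ± 0.12, and CHORDC1, an HSP90 partner, by 1.41 ± 0.10. HSP90AB1 was not called (-0.04 ± 0.05, adjusted p = 0.561).

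Antioxidant genes were mostly higher, and genes of metal defence split. Of 22 NRF2 targets 14 were called higher, 4 at least 2-fold, and 4 lower (median 0.45). HMOX1, which degrades heme, had 2513 and 2509 in MLM, against 898.3 and 954.8 in MRM (1.44 ± 0.05). GCLC and GCLM, the subunits of the enzyme that limits glutathione synthesis, changed by 1.20 ± 0.05 and 1.10 ± 0.05, and the ferritin chain FTH1 by 1.37 ± 0.05. Of 8 tested genes for metallothioneins and zinc transport, 4 were called higher, all at least 2-fold, and 3 lower, namely the metallothionein MT1A (-0.46) and the zinc transporters SLC30A1 (-0.45) and SLC39A10 (-0.76). The MT1A call was lost without MLM library 1 or 2 (adjusted p = 0.0761 and 0.0594). The metallothioneins MT1X, MT1E and MT2A, small metal-binding proteins whose close similarity leaves the assignment of reads uncertain, changed by 2.47 ± 0.06, 1.59 ± 0.07 and 1.496 ± 0.06. Among 27 genes of glycolysis and hypoxia 15 were higher, 8 and 5 of them without MLM library 1 and 2, and 8 lower: the lipase inhibitor ANGPTL4 had 2861 and 2947 in MLM, against 145.5 and 177.2 in MRM (4.17 ± 0.10), and the glucose transporter SLC2A3 fell by 1.46 ± 0.07.

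**Figure D2:**
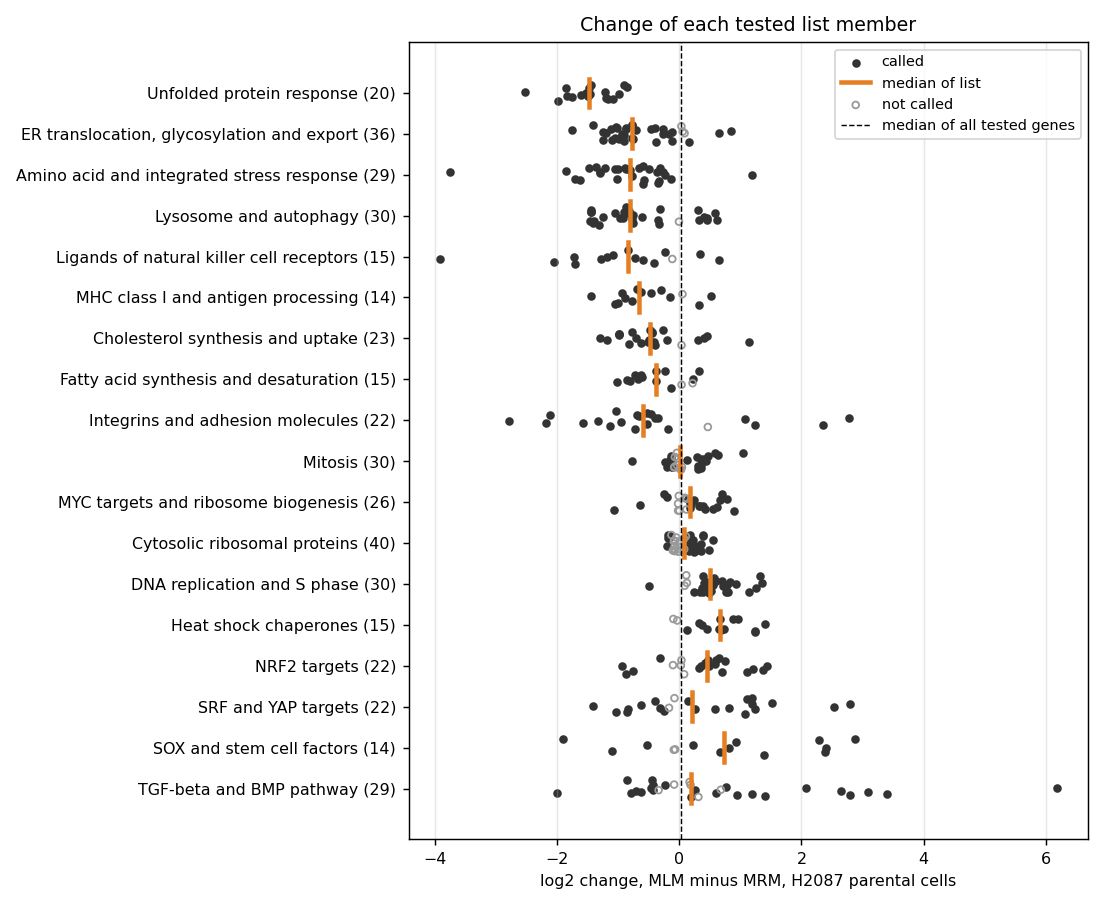
log2 change (MLM minus MRM) of each tested member of 18 gene lists in H2087 parental cells, with the number tested in brackets, filled points for members called by limma, open points for the others and an orange bar at the list median. All 20 unfolded protein response genes lie left of the dashed median of all genes, while S phase genes and heat shock chaperones lie mostly to its right.

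Genes that make tumour cells visible to lymphocytes were lower in many members. Of 14 tested genes of MHC class I and antigen processing 11 were called lower, 3 at least 2-fold, and 2 higher (median -0.67). TAPBP, the editor of peptide loading, had 2572 and 2637 in MLM, against 5426 and 5372 in MRM (-1.05 ± 0.04). The peptide transporter genes TAP1 and TAP2 changed by -0.89 ± 0.05 and -1.002 ± 0.04, and B2M, the light chain of class I, by -0.77 ± 0.05. Of 15 ligands of natural killer cell receptors 12 were called lower, 7 at least 2-fold, and 2 higher (median -0.85), but 9 of the 15 lie in runs of neighbouring genes, and outside the runs 4 of 6 were lower and 2 higher. ULBP2, a ligand of the activating receptor NKG2D, had 296.8 and 302.2 in MLM, against 1267 and 1227 in MRM (-2.05 ± 0.06), and ULBP1, also in a run, had 216.6 and 242.9 in MLM, against 890.4 and 638.1 in MRM (-1.71 ± 0.15). PVR, a ligand of DNAM1 and TIGIT that lies in no run, changed by -1.19 ± 0.06.

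Inflammatory genes split. Of 22 genes of NF-kB and chemokines 13 were called higher, 6 at least 2-fold, and 8 lower, 6 at least 2-fold. BIRC3, an inhibitor of apoptosis induced by NF-kB, had 17778 and 17501 in MLM, against 1316 and 1189 in MRM (3.82 ± 0.05), and the feedback inhibitor NFKBIA changed by 0.90 ± 0.05. The chemokine CCL2, which attracts monocytes, had 414.8 and 451.1 in MLM, against 1268 and 1179 in MRM (-1.50 ± 0.07). The growth factor CSF2 changed by -2.22 ± 0.15 and the membrane-bound chemokine CX3CL1 by -1.93 ± 0.12. Of 36 interferon stimulated genes 15 were higher (9 and 8 without MLM library 1 and 2), 12 lower and 9 not called, with IFI27 at 2.80 ± 0.16 and IFITM1 at -1.62 ± 0.07.

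Secreted developmental signals included some of the sharpest rises. DKK1, the secreted inhibitor of WNT signalling, had 1315 and 1362 normalized counts in MLM, against 11.1 and 11.8 in MRM (6.75 ± 0.12), and lies in a run of neighbouring genes. The ligand WNT5B had 112 and 107 in MLM, against 0 in both MRM libraries, and was at least 38.6-fold higher against a floor of 3 reads over the MRM group. BMP7, a bone morphogenetic protein, had 262.9 and 295.3 in MLM, against 1.58 and 4.73 in MRM from 3 reads, a ratio of 98.4 with a 95% counting interval of 33.6 to 478. The related BMP4 and BMP6 changed by 3.40 ± 0.22 and 3.08 ± 0.17, TGFB2 by 2.08 ± 0.08 and the growth factor NRG1, a ligand of ERBB receptors, by 1.69 ± 0.09. Over the lists, 13 of 29 genes of TGF-beta and BMP signalling were called higher, 8 at least 2-fold, and 10 lower, and 10 of 27 genes of the WNT pathway were higher and 10 lower. Counting intervals and floors leave out every error but that of counting, and 1 molecule may have given several reads.

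Modulators and receptors of growth factors went both ways. IGFBP3 and IGFBP4, which hold insulin-like growth factors outside the cell, changed by 2.94 ± 0.06 and -1.64 ± 0.05. PDGFRA, a receptor of platelet-derived growth factor, had 21.5 and 19.8 in MLM, against 427 and 385.2 in MRM (-4.23 ± 0.15). Of 22 growth factor receptors and insulin signalling genes 7 were higher and 15 lower. Of 14 SOX and stem cell factors 9 were called higher, 5 at least 2-fold, and 3 lower. SOX4 had 1649 and 1750 in MLM, against 332.1 and 366.3 in MRM (2.28 ± 0.07), and SOX21 changed by 2.39 ± 0.13. SOX2, a factor of stem cells, changed by 0.67 ± 0.12 and SOX9, a factor of progenitors, by 0.22 ± 0.06 (adjusted p = 0.00202 and 0.0121). The SOX2 call was lost without MLM library 2 (adjusted p = 0.0611) and the SOX9 call without MLM library 1 or 2 (adjusted p = 0.104 and 0.142).

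Genes of cell identity and matrix changed strongly without 1 direction. Of 28 epithelial junction genes and keratins 12 were called higher and 10 lower, 8 at least 2-fold in each direction. CDH1, the epithelial cadherin, had 807 and 763.2 in MLM, against 210.3 and 203.2 in MRM (1.92 ± 0.08). The epithelial splicing factor ESRP1 and the small GTPase RAB25 changed by 2.92 ± 0.14 and 3.90 ± 0.16. SNAI2, a repressor of epithelial genes, was higher too, with 901.3 and 849.3 in MLM, against 112.3 and 127.6 in MRM (2.86 ± 0.10), and so was the matrix protein FN1, with 77878 and 75380 in MLM, against 8481 and 7804 in MRM (3.24 ± 0.05). SPARC and TNC, matricellular proteins, were lower at -1.88 ± 0.04 and -1.46 ± 0.05, as was the mesenchymal cadherin CDH11 at -2.004 ± 0.05. FN1, SNAI2 and CDH11 lie in runs of neighbouring genes.

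Adhesion receptors were lower in most members: of 22 integrins and adhesion molecules 17 were called lower, 7 at least 2-fold, and 4 higher (median -0.59). ITGB3 and ITGB4, integrin beta chains, changed by -2.79 ± 0.06 and -2.19 ± 0.04, and LAMA5, a laminin chain, by -2.11 ± 0.05. ADAMTS4, a protease that cuts aggrecan, had 1.62 and 1.48 normalized counts in MLM, against 782.8 and 794.1 in MRM (-8.27 ± 0.19). TIMP2, an inhibitor of matrix proteases, changed by -1.65 ± 0.04, while SERPINE2, an inhibitor of thrombin and plasminogen activators, changed by 3.19 ± 0.09. Of 14 tested lung identity genes 6 were called lower, 5 at least 2-fold, and 4 higher (7 without MRM library 2). The median of this list was 0.32, and 2 of the higher members changed at least 2-fold. SFTPB, the surfactant protein B gene, had 156.2 and 139.5 in MLM, against 3716 and 3396 in MRM (-4.58 ± 0.08), and the aspartic protease NAPSA changed by -1.40 ± 0.14.

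Regulators of death were balanced as a list, with 10 of 22 death receptor and BCL2 family genes higher and 10 lower. Without either MLM library 6 were higher. TNFRSF10B, a receptor of TRAIL that ER stress is known to raise, had 2166 and 2059 in MLM, against 7559 and 6402 in MRM (-1.72 ± 0.08), and the pro-death gene BBC3 changed by -1.48 ± 0.10. BCL2A1, a survival protein, had 369 and 372 in MLM, against 4.74 and 0 in MRM from 3 reads, a ratio of 130 with a 95% counting interval of 44.5 to 633.

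Several genes were expressed in MLM and close to silent in MRM. ELOVL2, which elongates polyunsaturated fatty acids, had 682 and 698.4 normalized counts in MLM, against 0 in both MRM libraries, at least 243-fold higher against the floor of 3 reads. NDN, an imprinted growth suppressor, was at least 111-fold higher and GALNT14, which starts O-linked glycans, at least 88.7-fold higher, both also at 0 in MRM. KRT6A, a keratin of stressed epithelia with near-identical copies, had 580.7 and 591.6 in MLM, against 1.58 and 0 in MRM from 1 read, a ratio of 619 with an interval of 111 to 24457. The guidance cue SEMA3C had 2682 and 2701 in MLM, against 15.8 and 16.5 in MRM (7.29 ± 0.10). In the opposite direction stood BCHE, butyrylcholinesterase (-5.60 ± 0.13), DMBT1, a mucosal scavenger protein (-5.18 ± 0.15), the netrin receptor UNC5B (-4.71 ± 0.21), ENPP3, an ectonucleotidase (-4.63 ± 0.10), and CST1, a cystatin (-4.09 ± 0.08).

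The same change of medium in the 6 LCC derivatives, each measured once in MLM and once in MRM, was set beside that in parental cells. Differences of stock between the parental MLM and MRM cells were not tested. Of the 1211 genes called at least 2-fold lower in parental cells, 1173 could be compared, and 1079 of them (92.0%) had the same sign in LCC cells, 714 (60.9%) being called lower there, where 18.9% of all tested genes were. Of the 1127 genes called at least 2-fold higher, 1070 could be compared, 714 (66.7%) had the same sign and 246 (23.0%) were called higher in LCC cells, beside 18.5% of all genes. Calls within LCC cells, here and below, did not pair the media of each derivative. The spread between derivatives stayed in the error of these calls, so their counts and the shares of all genes may be too low. Across 11546 genes, which are not independent replicates, the log2 changes of parental and LCC cells correlated at r = 0.475, and in both populations the MLM libraries were the deeper ones. A test of the difference between the 2 medium effects called 1344 of 12535 genes (10.7%), 832 (6.64%) with the parental effect above that of LCC cells and 512 (4.08%) below. That fit did not use the names of the populations. With each population named in the titles as a block across both media, as a paired design, the difference was called for 3426 genes, among them all 61 named in the text. That block also pairs the parental libraries by number, which their deviations do not show (correlation of 0.0708). The unblocked count depended on single libraries: it was 426 and 432 without parental MLM library 1 and 2, and 459 and 651 without parental MRM library 1 and 2. Of 61 genes named in the text whose difference was called, 23 were called without each of the 4 parental libraries in turn. The LCC6 library of MRM is in doubt, since its deviation from the other derivatives correlated at 0.481 with that of LCC5 of MLM and at 0.4 with that of LCC6 of MLM. Without LCC6 in either medium the difference was called for 1349 genes and for 59 of the 61, and 650 of the 1173 lower genes and 216 of the 1070 higher genes were called the same way in LCC cells.

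The ER and amino acid programmes were lower in both populations. All 20 unfolded protein response genes were called lower in LCC cells as well, with a median of -0.94, and the difference of the effects was called for 6, each further down in parental cells, beside 4.08% of all genes. The count was 12 with the block, 2 without either parental MLM library and 0 without parental MRM library 1, where limma gave 7 an unadjusted p under 0.05. HSPA5 in LCC cells ranged over 23241 to 30259 normalized counts in MLM, against 53539 to 117980 in MRM, and its difference was not called (-0.89, adjusted p = 0.0747), but was with the block (adjusted p = 0.0141) or without LCC6 (adjusted p = 0.0454). HSP90B1 was further down in parental cells (difference -0.78, adjusted p = 0.00615). For GDF15 the LCC libraries ranged over 549.1 to 2172 in MLM, against 2124 to 16271 in MRM, and the parental change lay further down (difference -3.25 ± 0.82, adjusted p = 0.0206). Integrated stress genes were lower in 19 and higher in 1 of 29 in LCC cells (17 and 1 without LCC6). S phase genes were higher in 9 of 30 in LCC cells (7 without LCC6), with a median of 0.15, and the difference was called for 3 of 30, beside 6.64% of all genes. Without parental MLM library 1, MLM library 2 or MRM library 1, limma called 0 of the 30, with 7, 7 and 4 at an unadjusted p under 0.05. With the block 7 were called with the parental effect above that of LCC cells and 1 below.

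**Figure D3:**
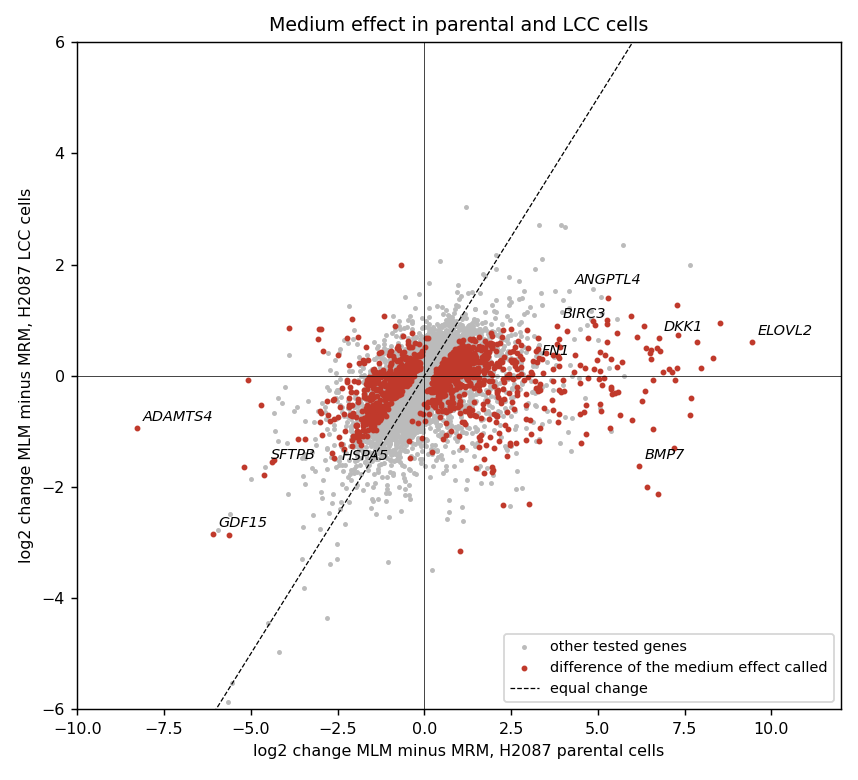
log2 change (MLM minus MRM) of each gene in H2087 parental cells (x axis) and in H2087 LCC cells (y axis), with genes in red where the difference of the medium effects was called and a dashed line of equal change. GDF15 and HSPA5 changed in the same direction in both, whereas ELOVL2, DKK1, FN1 and ADAMTS4 lie far along the x axis and much nearer to 0 on the y axis.

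Some of the sharpest rises of parental cells in MLM had no counterpart of that size in LCC cells. For others, among them ANGPTL4, RAB25, SERPINE2, ESRP1, SNAI2 and ANKRD1, the fit without the block called no difference from LCC cells. A missing call does not show that a rise was shared. Of the 28 epithelial junction genes and keratins, which include RAB25 and ESRP1, 0 were called higher and 7 lower in LCC cells (median -0.68). For DKK1 the parental effect exceeded that of LCC cells by 6.07 ± 1.35 (adjusted p = 0.011), and the LCC libraries held 371 to 1631 normalized counts in MLM, against 97.6 to 4001 in MRM. FN1 differed by 2.99 ± 0.77, with 63328 to 214050 in LCC cells in MLM, against 50487 to 254290 in MRM. For these genes the parental MRM libraries lay below every LCC library of either medium. The difference was also called for ELOVL2, and here LCC libraries held 0 to 13.3 in MLM, against 0 to 6.19 in MRM, so that the parental MLM libraries were the high ones. QPRT, an enzyme of NAD synthesis, had 483.8 and 533.7 in parental cells in MLM, against 9.49 and 2.36 in MRM, and LCC libraries held 0 to 11.5 in MLM, against 4.4 to 18.8 in MRM. Further differences were called for BMP7 (7.81), WNT5B (6.34), BIRC3 (2.91), SOX21 (2.41), HMOX1 (1.90) and FOSL1 (1.14) above, and for ADAMTS4 (-7.34), UNC5B (-4.19), ITGB3 (-2.08), ULBP2 (-1.38) and RBL2 (-0.89) below. The differences of ELOVL2, QPRT, BMP7, WNT5B, BIRC3, SOX21, HMOX1, FOSL1, ADAMTS4, UNC5B, ULBP2 and RBL2 were called without each parental library in turn, while those of DKK1, FN1, ITGB3, HSP90B1 and GDF15 were lost without at least 1 of them. edgeR called 54 of the 61 named differences, without those of WNT5B, NDN, GALNT14 and KRT6A, which had at most 1 read in parental MRM libraries, and without those of HYOU1, CDC25C and ENPP3. The fitted differences of ELOVL2, WNT5B, NDN, GALNT14, KRT6A, BMP7 and BCL2A1, with at most 3 reads in parental MRM libraries, depend on the added 1 and are no bounds. The differences of MT1X and ENPP3 were lost without LCC6 (adjusted p = 0.0623 and 0.0504).

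The parental cells of the breast line HCC1954, in 3 libraries per medium normalized apart from H2087, are given side by side without a test between the lines. Amino acid and integrated stress genes were called higher in 22 of 29 there (median 0.51), and cholesterol genes higher in 23 of 23 (median 1.17), where limma called 25.5% of all genes higher. The unfolded protein response list had 4 higher and 4 lower of 20 in HCC1954. Mitotic genes were lower in 22 of 30 (median -0.73), with MKI67 at -0.74, and S phase genes were lower in 1 of 30, beside 20.9% of all genes. Across the 11546 genes the changes of the 2 parental lines correlated at r = 0.0838, and in HCC1954 the MRM libraries were the deeper ones.

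**Figure D4:**
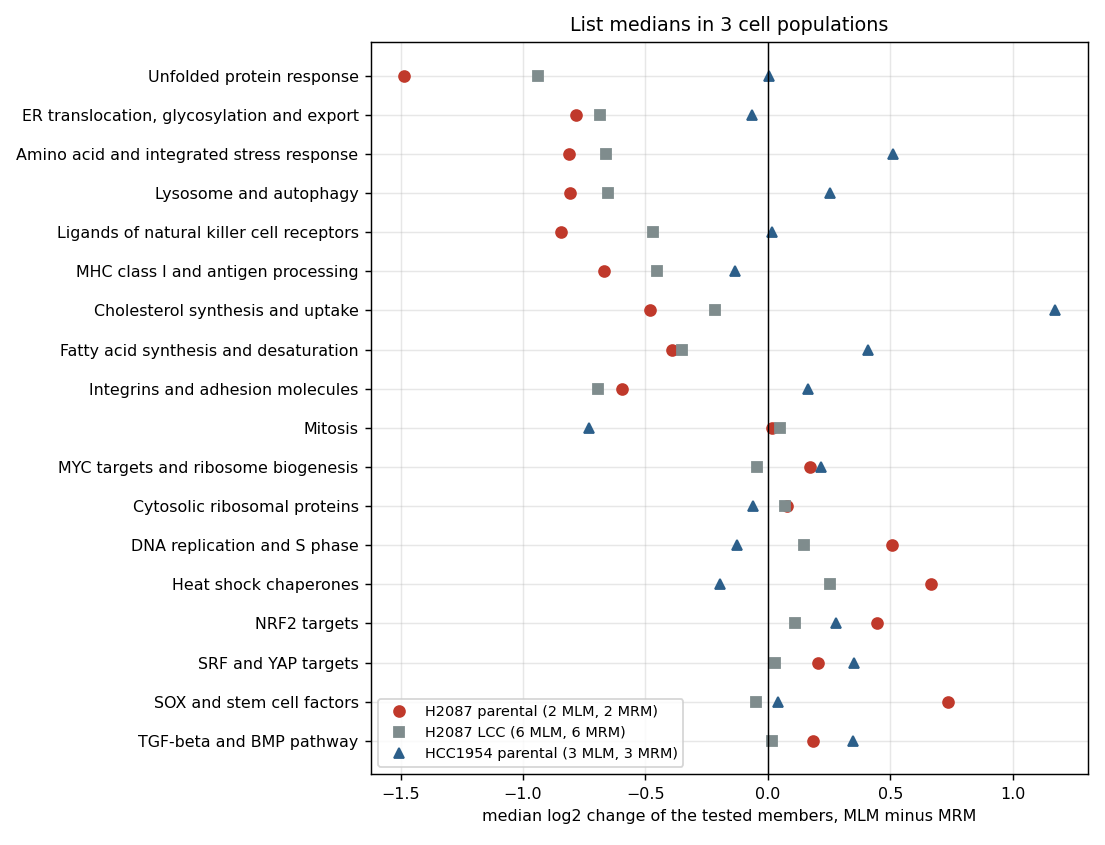
Median log2 change (MLM minus MRM) of the tested members of 18 lists in H2087 parental cells (red circles), H2087 LCC cells (grey squares) and HCC1954 parental cells (blue triangles). The H2087 populations lie on the same side for the first 9 lists, while HCC1954 lies to the right for cholesterol and amino acid genes and to the left for mitosis.

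Some stretches of neighbouring genes changed in the same direction. Runs were defined as stretches in which at least 13 of 15 consecutive tested genes changed in 1 direction relative to the median of all genes, by a window median of at least 0.3. The parental comparison held 74 runs with 1698 genes (13.6% of those placed), 41 higher and 33 lower in MLM. The same rule on the medium contrast of LCC cells gave 16 runs with 307 genes, and on that of HCC1954 parental cells 87 runs with 1981 genes. The longest of the leading runs spanned 88 tested genes of chromosome 5, from PLEKHG4B to EMB, of which 78 were higher in MLM with a median of 0.91, against 0.06 for the same genes in LCC cells. The highest median was 1.12 over 15 genes of chromosome 7, from HDAC9 to NUPL2. Lower runs included 53 genes of chromosome 12 from PTPN6 to MGP (-0.76) and 21 from NACA to KIF5A (-0.78). Of the genes named above, HYOU1, CRELD2, RPN1, INHBE, DDIT3, NEU1, HMGCS1, LPCAT3, CCNE1, CDC25C, CDKN1B, FOSL1, THBS1, SLC2A3, TAP1, TAP2, ULBP1, ULBP2, DKK1, BMP4, FN1, SNAI2, CDH11, TIMP2, SERPINE2 and NDN lie in such runs. The part of these runs in the changes of the genes inside them was not tested.

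**Figure D5:**
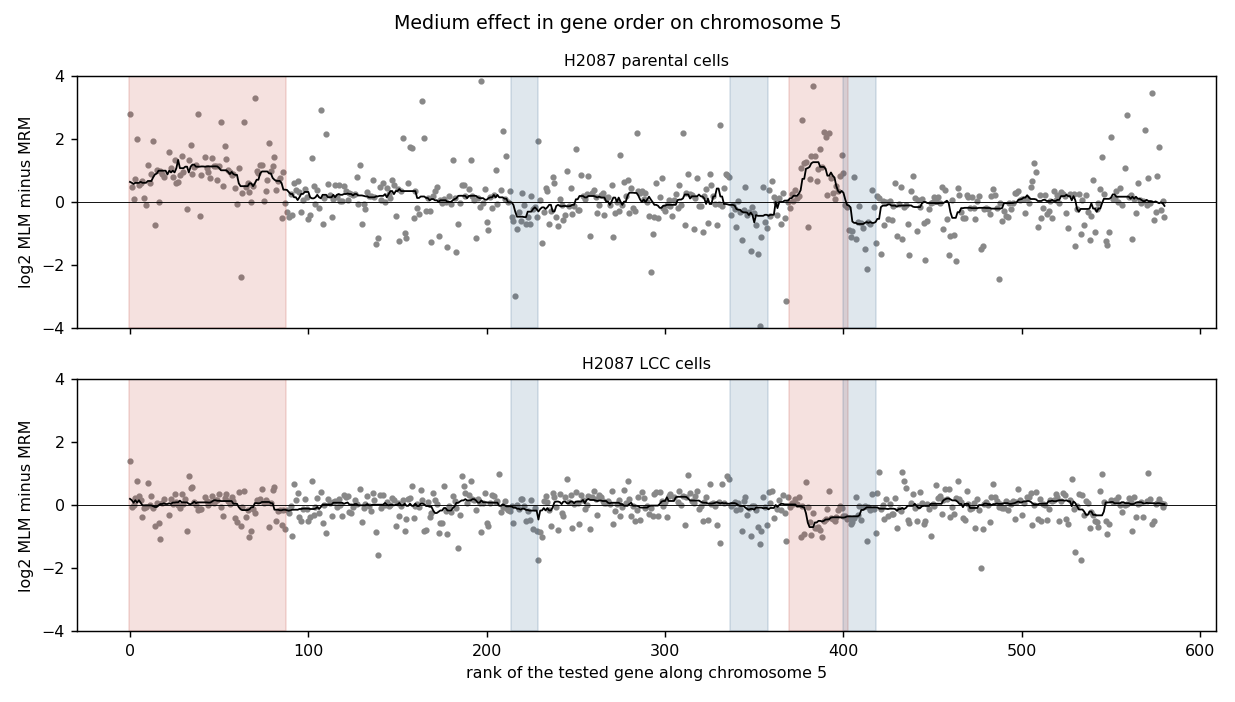
log2 change (MLM minus MRM) of 581 tested genes in their order along chromosome 5 in H2087 parental cells (top) and H2087 LCC cells (bottom), with a running median over 15 genes and shading over runs higher (red) and lower (blue) in MLM in the parental comparison. The first 88 genes lie high in parental cells and near 0 in LCC cells, and 9 parental points fall outside the plotted range.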

How the data were processed

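The RNA-seq values are deposited normalized counts, a signal per gene that the authors made from reads. For their making, Bowtie2 2.2.4, HTSeq 0.6.1p1, DESeq2 1.8.1 and the builds hg19 and GRCh37 are listed in the submitters' processing notes, without a role for each. Every deposited value was a whole number of reads divided by 1 size factor per library (100% whole within 0.01), and factors recomputed over both media of the line matched, so the 2 tables of the line share a scale.

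The main test was limma 3.58.1 (R 4.3.3) on log2 of the deposited signal plus 1, with a trended variance, two-sided, Benjamini-Hochberg adjusted over the 12524 genes with a mean of at least 10, called at an adjusted p under 0.05. The count of calls of at least 2-fold was added after the data were seen. edgeR 4.0.16, which called 9344 genes, and DESeq2 1.42.0 on the recovered reads were alternatives, as were other pseudocounts, filters, scalings, a replicate block, each library left out and all 16 H2087 libraries in 1 fit. The difference between parental and LCC effects was a contrast in limma over those 16 libraries, and, since the titles name the same derivatives in both media and their deviations correlated at 0.4 to 0.738, also with the population as a block. Calls within LCC cells came from the fit over those 16 libraries without that block. The code of the fits and of the search for runs was tried on simulated data with planted changes. Those simulations did not copy the spread or the share of changed genes seen here, so they give no error rate for these results. Libraries 1 and 2 differed beyond counting noise (chi-square per degree of freedom 2.63 in MLM and 3.85 in MRM) and were counted as separate samples.

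The 44 gene lists, 1 more added later, and the comparison itself were chosen with earlier results of these data known. Named genes were the largest changes of genes called at a mean of 100 or more, up to 6 called and 3 uncalled members of each list, the largest parental and LCC differences, and 10 genes chosen by name. CANX, CRELD2, ASNS, CHAC1, AARS, DDIT3, ATF4, E2F1, PCNA, SLC30A1, CYP26B1, DHRS3 and TGM2 were outside that rule and were named after their values were seen. Gene order and promoter sequences (250 bases before to 50 after the start) came from RefSeq tables on GRCh38.p14, and 17851 of 18085 genes were placed by symbol or synonym. No coordinate was converted between builds. The parental MLM library 3 and the chromatin samples were not analysed here. Some genes are not reported here.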

Additional observations from a re-analysis of the deposited data

Results flagged for a closer look

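The medium effect differed between parental and LCC cells for 61 of 170 named genes checked, by limma's adjusted p on the contrast of the effects over 16 libraries. Values are differences of log2 changes, parental minus LCC, and those of ELOVL2, WNT5B, NDN, GALNT14, KRT6A, BMP7 and BCL2A1 depend on the added 1. Among genes of the ER, its export route and secreted stress proteins the difference was -0.78 for HSP90B1, -0.59 for HYOU1, -0.80 for SEL1L, -0.68 for LMAN1, -0.70 for RPN2, -3.25 for GDF15 and -2.75 for INHBE. Cycle genes had 0.65 for CLSPN, 0.79 for CDC6, -0.64 for CDC25C, 1.06 for CCND1 and -0.89 for RBL2.

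Mitogen-responsive, tension and quiescence genes had 1.14 for FOSL1, 1.49 for JUN, -1.28 for IER3, 1.30 for KLF6, 1.39 for TXNIP, -1.56 for FOXO4, -1.30 for CTGF, 1.01 for ACTG1 and 0.81 for TPM1. Stress defence genes had 0.75 for CHORDC1, 1.90 for HMOX1, 0.91 for GCLM, 2.05 for MT1X and -1.09 for MT1A. Immune and survival genes had -1.38 for ULBP2, 2.91 for BIRC3, -2.15 for CSF2 and 5.996 for BCL2A1.

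Secreted signals and their modulators gave 6.07 for DKK1, 6.34 for WNT5B, 3.35 for BMP4, 4.13 for BMP6, 7.81 for BMP7, 2.78 for TGFB2, 1.84 for NRG1, 4.10 for IGFBP3, -0.99 for IGFBP4 and 7.16 for SEMA3C. Identity and matrix genes gave 2.69 for SOX4, 2.41 for SOX21, 2.99 for FN1, -2.11 for SPARC, 7.57 for KRT6A, -2.08 for ITGB3, -7.34 for ADAMTS4, -0.92 for TIMP2 and -1.09 for LOXL2. The remaining values were 8.83 for ELOVL2, 7.99 for NDN, 7.83 for GALNT14, 8.43 for QPRT, -3.54 for DMBT1, -2.84 for ENPP3, -4.19 for UNC5B, 0.80 for AHR, 1.33 for SGK1, 0.48 for CYCS, 0.55 for TFAM and -1.02 for TGM2.

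In 12 groups of 6 LCC libraries, checked for DKK1, ELOVL2, FN1, GDF15, HSPA5 and QPRT, 3 libraries stood apart from the rest by Dixon's criterion, which chance meets in a small share of groups. These were LCC4 in MRM for DKK1 at 4001 normalized counts, LCC1 in MLM for QPRT at 11.5 and LCC1 in MRM for QPRT at 18.8.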

How the results depend on the processing

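Of 170 named genes, all kept their direction and their side of the threshold under edgeR, both other pseudocounts, both other filters and TMM scaling, except that RARRES3 was not tested at a mean of at least 50. DESeq2 ended the CHAC1 call, and scaling to the library total ended it too and called NPM1 higher (adjusted p = 0.0171). With all 16 libraries in 1 fit 27 of 170 calls were lost, 64 of 90 list counts moved by over 1.5 times, and 4818 genes were called, 2552 higher and 2266 lower, against 9090 with the 4 parental libraries alone. The wider spread among LCC derivatives enters that fit by construction.

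Leaving out 1 of the 4 libraries gave 6250 to 10273 calls, 3158 to 5408 of them higher and 3092 to 4865 lower, and 1006 to 1174 higher and 1147 to 1322 lower calls of at least 2-fold. A group then holds 1 library, assumed to vary like the other group. The difference between parental and LCC effects, 1344 calls, gave 426 to 651 under the same omissions. Deviations of same-numbered parental libraries correlated at 0.0708, so the numbers were not taken to pair them. With the number as a block limma called 9372 genes and lost none of the calls among these genes, and with the population named in the titles as a block the difference was called for 3426 genes. Depth was lower in both MRM libraries, so genes near 0 there are limited by reads: 3 reads over the group set the floor.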

Other observations

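In a joint list of aryl hydrocarbon receptor and retinoid targets 7 of 13 tested genes were higher in MLM and 3 lower, with a median change of 0.70. The 3 lower ones were the retinoid genes CYP26B1 (-0.68), DHRS3 (-0.55) and TGM2 (-0.59), while the retinoid gene RARRES3 (1.82) was a higher one. DHRS3 lies in a run of neighbouring genes, and its call was lost without MLM library 1 or 2 (adjusted p = 0.0667 and 0.073). The receptor AHR had 2189 and 2200 normalized counts in MLM, against 1349 and 1347 in MRM (0.70 ± 0.04, limma adjusted p = 6.72e-06). TIPARP, its feedback inhibitor, had 6185 and 6257 in MLM, against 3172 and 3172 in MRM (0.97 ± 0.04), and the detoxifying enzymes CYP1A1 and CYP1B1 changed by 0.91 ± 0.11 and 0.96 ± 0.07. The CYP1A1 and CYP1B1 calls were lost with all 16 libraries in 1 limma fit (adjusted p = 0.114 and 0.138). So were those of CYP26B1, DHRS3 and RARRES3 (adjusted p = 0.274, 0.756 and 0.113). Among glucocorticoid targets, 9 of 15 were higher and 4 lower, the lower ones numbering 1 and 2 without MLM library 1 and 2. The kinase SGK1 had 1333 and 1359 in MLM, against 392.2 and 399.4 in MRM (1.76 ± 0.06).

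Collagens and matrix genes were lower in 13 of 22 and higher in 6. LOXL2, which crosslinks collagen, had 2008 and 2096 in MLM, against 8235 and 7787 in MRM (-1.96 ± 0.05), and COL5A1, a fibrillar collagen chain, changed by -2.18 ± 0.19, a call lost with all 16 libraries in 1 fit (adjusted p = 0.58). Surface proteases were lower in 11 of 18 and higher in 6, the collagenase MMP1 among the higher ones at 2.43 ± 0.16. Of 19 secreted growth factors 9 were lower and 7 higher. EGF itself had 167 and 165.7 in MLM, against 681.6 and 649.9 in MRM (-1.99 ± 0.08).

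Genes of oxidative phosphorylation moved little, with a median of 0.08 over 27. TFAM, which maintains mitochondrial DNA, and cytochrome c (CYCS) were higher at 0.77 ± 0.05 and 0.80 ± 0.04, while UQCRC1, a subunit of complex III, was lower at -0.54 ± 0.05. TFAM and UQCRC1 lie in runs of neighbouring genes.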
